A study of Danio rerio with 12 samples.

Results

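The 62 zebrafish genes described here encode the enzymes and regulators that keep reactive oxygen species and electrophiles in check, of 27827 genes listed in the count table of the series. They were chosen by gene symbol: superoxide dismutases, catalase, peroxiredoxins, sulfiredoxin, glutathione peroxidases, the glutathione synthesis and reductase genes, glutathione transferases, every symbol that begins with txn, the thioredoxin gene zgc:56493, nqo1, the haem oxygenases and the NRF2 and KEAP1 genes. The rule itself uses symbols and no measured value, though it was set with earlier results of these data known. RNA was sequenced from 12 zebrafish (Danio rerio) melanomas: 6 carried the MiniCoopR vector with MyrRSK, named for the kinase RSK, a ribosomal S6 kinase (the MyrRSK group), and 6 carried MiniCoopR with GFP (the GFP group). MiniCoopR is a transgenesis vector that gives mitfa, the melanocyte master regulator, back to fish that lack it and carries a second gene beside it, so both groups share the vector and its mitfa copy. The labels name no treatment of the fish. The sources used here do not give their strain, other alleles, age or sex, or the species and paralog of RSK. Whether any melanomas share a fish is not labelled, and p-values therefore cover only the spread between these 12 samples, which may be technical.

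Superoxide made by the respiratory chain and by oxidases is turned into hydrogen peroxide by superoxide dismutases, and catalase, peroxiredoxins and glutathione peroxidases remove the peroxide. Glutathione peroxidases and transferases draw on glutathione, which is built by glutamate-cysteine ligase and glutathione synthetase and kept reduced by glutathione reductase, while peroxiredoxins are kept reduced by thioredoxin and thioredoxin reductase. Both reductases spend NADPH. The transcription factor NRF2 (nfe2l2a in the fish), held low by KEAP1, switches on many of these genes in vertebrates. Melanocytes meet a high oxidant load because melanin synthesis itself releases peroxide and quinones.

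Libraries held 61750434 to 67462664 gene counts in MyrRSK and 66200553 to 72257237 in GFP melanomas, so counting error was small for all but the lowest members. GFP 1 and GFP 2 stood apart from the others on the first principal component of all genes. Of the 14 melanocyte marker symbols fixed for the tissue, 12 were matched to genes, and their summed level was 4237 to 18196 CPM (counts scaled to library size with TMM factors) in MyrRSK and 1850 to 36750 CPM in GFP melanomas. The labelled tissue thus had its markers in each library, but their level differed widely. The lowest sum was that of GFP 6, at 1850 CPM beside a GFP median of 18029 CPM. Some other cell markers differed between the groups at an unadjusted p under 0.05 (edgeR), where 7.18% of all genes were higher and 8.33% lower. Of 25 skeletal muscle genes tested, 23 had a positive log2 fold change and 20 were higher at that level. Of 32 macrophage and neutrophil genes 25 had a positive log2 fold change, with 7 higher and 2 lower at that level. The summed macrophage and neutrophil markers were 2423 to 5226 CPM in MyrRSK and 845 to 3519 CPM in GFP melanomas, and no marker of any list was at 0 in all libraries. Fibroblast genes were above 0 in 9 of 10 cases, 5 of them at an unadjusted p under 0.05, hepatocyte genes held 4 higher and 1 lower of 15 at that level, and keratinocyte genes 1 higher and 5 lower of 19. Of the 19 keratinocyte genes 13 had a negative log2 fold change, as had 6 of the 15 hepatocyte genes. Of 12 melanocyte genes 10 had a negative log2 fold change (median -0.36), with 3 lower and 0 higher at that level. Negative log2 fold changes were found for 7 of 9 erythrocyte and 8 of 9 endothelial genes. Of these 2 lists 0 genes were in either direction at that level (DESeq2 and limma-voom called 0 of either list). After adjustment edgeR called 3 muscle genes higher and 0 genes of the other marker lists. DESeq2 called 17 muscle, 4 hepatocyte and 1 fibroblast genes higher, and 2 melanocyte and 1 keratinocyte genes lower. The authors' deposited table lists only 2 muscle genes as higher, with 4 hepatocyte and 1 fibroblast genes, and 1 melanocyte and 0 keratinocyte genes as lower. limma-voom called 1 hepatocyte gene higher and 0 muscle genes. Of the macrophage and neutrophil genes DESeq2 and limma-voom called 0. The summed muscle markers overlapped, at 232 to 1384 CPM in MyrRSK and 96.5 to 1233 CPM in GFP melanomas. Without atp2a1, a calcium pump gene left out after its values were seen, they were 30.6 to 552 CPM in MyrRSK melanomas, highest in MyrRSK 4 and MyrRSK 2, and 33.4 to 40.2 CPM in GFP melanomas. In bulk tumour RNA, fewer cells of a type and less RNA per cell cannot be told apart.

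One member passed the test, the glutathione transferase gene gstal, which was higher in MyrRSK melanomas (p under 0.05 from the quasi-likelihood test of edgeR, after Benjamini-Hochberg adjustment over 26866 genes, with 6 libraries a group). Of the 61 members tested 1 was called higher and 0 lower, where 0.29% of all genes tested were called higher and 0.115% lower. Before adjustment, 11 of the 61 at a p under 0.05 were higher and 4 lower, where 7.18% of all genes were higher and 8.33% lower. With the mean log2 CPM of the muscle markers as a covariate, 3 members were higher and 2 lower at that level, where 4.98% of all genes were higher and 3.9% lower in that fit, and 0 members were called, where 0.0149% of all genes were. Of the 15 members at an unadjusted p under 0.05, 15 kept their sign with that covariate, 5 had a log2 fold change more than 1.5 times smaller (nfe2l2a, gss, prdx2, gsto1 at 0.90 and GSTK1 (1 of 4) at 0.69) and 2 one more than 1.5 times larger (gstt1a at -3.14 and GSTK1 (3 of 4) at -2.44). Without both MyrRSK 2 and MyrRSK 4, edgeR called 0 members (0.00372% of all genes), and 8 were higher (5.6% of all genes) and 2 lower (5.56%) at an unadjusted p under 0.05. Without both GFP 1 and GFP 2, edgeR called 0 members (0.112% of all genes), and 12 were higher (7.62%) and 6 lower (8.52%) before adjustment. The muscle covariate is itself tied to group, as 23 of the 25 muscle genes tested had a positive log2 fold change, with a median of 3.23. A fit with both therefore cannot tell group from muscle content, here or for the single genes below. Calls lost in it do not show which of the 2 a change goes with. The part that muscle or immune cells play in these counts was not tested further. The member left out by the filter on low counts was txnipb, which had at most 0.978 CPM in MyrRSK and 0.255 CPM in GFP melanomas. DESeq2 called 6 members higher (2.95% of all genes were) and 0 lower (2.83%), namely gstal, gsto2, gsto1, GSTK1 (1 of 4), zgc:56493 and gpx1b, and the authors' deposited table lists the same 6 as higher (2.88% of its genes) and 0 members as lower (2.29%). limma-voom called gstal higher, as it did 0.298% of all genes, and 0 members lower (0.0707%). The median log2 fold change of the 61 members was 0.25, beside -0.07 over all genes tested, and 39 of the 61 (63.9%) were above 0, beside 44.9% of all genes. Without the 9 txndc and txnl4 genes taken in by symbol alone, the 52 tested members had a median of 0.22, with 61.5% above 0.

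**Figure D1:**
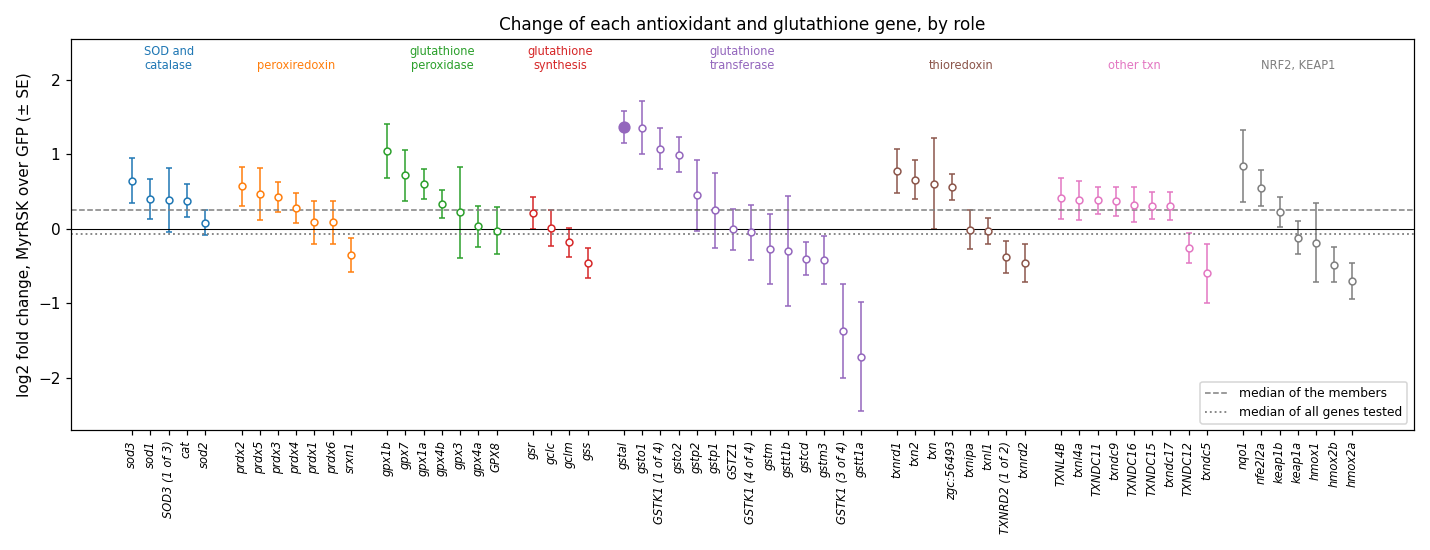
The log2 fold change of each of the 61 tested members (vertical axis, MyrRSK over GFP, with its standard error) is grouped along the horizontal axis by role; the filled point is the member with an adjusted p under 0.05, the dashed line is the median of the members and the dotted line that of all genes. The dismutases and catalase lie above 0, while the transferases run from 1.37 for gstal to -1.71 for gstt1a.

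Glutathione transferases, which join glutathione to electrophiles, held the highest and the lowest fold changes among the members. At an unadjusted p under 0.05 the 14 genes held 4 higher (28.6%) and 2 lower (14.3%). Of all genes 7.18% were higher and 8.33% lower at that level. With edgeR 1 of the 14 was called higher, where 0.29% of all genes were, and the median log2 fold change was -0.03. The alpha-class gene gstal (ENSDARG00000090228, chromosome 13, 715869 to 724232, Zv9), whose human ortholog in the deposited table is GSTA4, an enzyme that clears aldehydes formed from oxidised lipids in mammals, had 184, 192 and 308 CPM as lowest, median and highest value in MyrRSK and 54.7, 79.5 and 114 CPM in GFP melanomas. The groups did not overlap, and MyrRSK 1 was the highest library. The log2 fold change of gstal was 1.37 ± 0.22 (SE), a 2.58-fold higher level, with an adjusted p of 0.0241 (edgeR). The call of gstal ended without GFP 2, MyrRSK 1, MyrRSK 4 or MyrRSK 5, each left out in turn, where its log2 fold change lay between 1.24 and 1.38 and its adjusted p did not go above 0.0545 (edgeR). With the mean log2 CPM of the muscle markers as a covariate it was 1.15 with an adjusted p of 0.237, and over 23 alternatives the adjusted p ran from 8.84e-07 to 0.237.

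The annotated end of gstal overlaps by 218 bases that of its neighbour TMEM14A, a gene for a small membrane protein (chromosome 13, 724015 to 728427, Zv9). TMEM14A had 36.9, 44.9 and 66.2 CPM in MyrRSK and 17.8, 23.8 and 26.3 CPM in GFP melanomas (log2 fold change 1.02 ± 0.18, edgeR adjusted p = 0.0345). Its groups did not overlap either. With single libraries left out the call of TMEM14A held only without GFP 4, GFP 6 or MyrRSK 3, and it ended with the muscle covariate. Whether counting used strand is not given in the sources used here, so reads from the shared stretch cannot be told apart.

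The omega-class genes gsto1 and gsto2, whose mammalian relatives reduce dehydroascorbate, lie 7845 bases apart on chromosome 13. gsto2 had 43.5, 62.8 and 106 CPM in MyrRSK and 22.6, 33.4 and 43.2 CPM in GFP melanomas, a log2 fold change of 0.99 ± 0.23 (edgeR adjusted p = 0.0742). Its groups did not overlap, but only narrowly, the lowest MyrRSK library (MyrRSK 2) being just above the highest GFP library (GFP 4). gsto1 had 48.3, 58.4 and 123 CPM in MyrRSK and 10.5, 22.5 and 49.8 CPM in GFP melanomas (log2 fold change 1.36 ± 0.35, edgeR adjusted p = 0.0975). In both genes MyrRSK 4 was the highest MyrRSK library and GFP 2 the lowest GFP library. The kappa-class genes lie side by side on chromosome 16 and differed among themselves. GSTK1 (1 of 4) had 20.4, 24.3 and 32.8 CPM in MyrRSK and 6.66, 12.8 and 18.5 CPM in GFP melanomas, again with no overlap (log2 fold change 1.08 ± 0.28, edgeR adjusted p = 0.0954). GSTK1 (3 of 4), with at most 2.14 CPM, had a log2 fold change of -1.37 ± 0.63, and GSTK1 (4 of 4) one of -0.05 ± 0.37. Groups without overlap in the higher direction were found for 3 members, gstal, gsto2 and GSTK1 (1 of 4), which is 4.92% of the 61 tested beside 1.01% of all genes, and in the lower direction for 0 members beside 0.722%.

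The other transferases had overlapping groups. The pi-class genes gstp1 and gstp2 are neighbours 3981 bases apart on chromosome 4. gstp1 had 321, 389 and 541 CPM in MyrRSK and 32.4, 305 and 852 CPM in GFP melanomas (log2 fold change 0.25 ± 0.50), and gstp2 had 30.6, 35.2 and 53.1 CPM and 3.26, 23.8 and 67.6 CPM. In both genes GFP 4 was the lowest and GFP 2 the highest of all 12 libraries, so the GFP range enclosed the MyrRSK range. How reads that fit both copies were counted is not given in the sources used here. The theta-class gene gstt1a had 5.49, 36.4 and 71.4 CPM in MyrRSK and 5.32, 79.8 and 257 CPM in GFP melanomas (log2 fold change -1.71 ± 0.73, edgeR adjusted p = 0.278). Its values spread widely in both groups, with GFP 6 at the lowest level and GFP 4 and GFP 5 at the highest. The mu-class genes gstm and gstm3, the theta-class gstt1b, the tyrosine breakdown enzyme gene GSTZ1 and gstcd, which codes for a protein with a transferase-like domain, had log2 fold changes from -0.42 to -0.01 and adjusted p of at least 0.411 (edgeR).

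**Figure D2:**
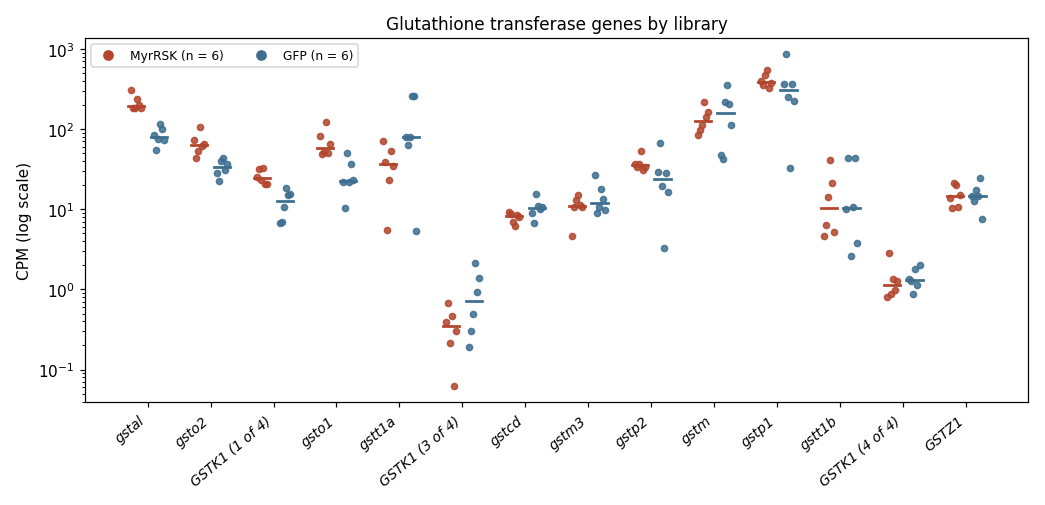
CPM on a log scale (vertical axis) of the 14 glutathione transferase genes (horizontal axis, by increasing p) in 6 MyrRSK and 6 GFP libraries, 1 point a library, with the group medians as bars. For gstal, gsto2 and GSTK1 (1 of 4) the groups do not overlap, and the GFP values of gstp1 range from 32.4 to 852 CPM.

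In the thioredoxin system the thioredoxin gene zgc:56493 and the reductase gene txnrd1 had higher medians in MyrRSK melanomas without passing the test. The unadjusted p was under 0.05 for 3 of 8 tested genes (37.5%), all with a positive fold change. Of all genes 7.18% were higher at that level. With edgeR and limma-voom 0 of the 8 were called, and with DESeq2 1 was called higher, where 2.95% of all genes were. zgc:56493, a thioredoxin gene whose listed human ortholog is TXN, had 343, 434 and 578 CPM in MyrRSK and 258, 302 and 368 CPM in GFP melanomas. In 5 of 6 MyrRSK libraries it was above every GFP library, the exception being MyrRSK 3 (log2 fold change 0.56 ± 0.18, edgeR adjusted p = 0.152). The second gene listed as a TXN ortholog, txn, had 44.7, 72.8 and 230 CPM in MyrRSK and 14.7, 54.2 and 183 CPM in GFP melanomas (0.61 ± 0.61). MyrRSK 3 was above every GFP library and 3 GFP libraries were below every MyrRSK library, and the fold change was 0.21 without MyrRSK 3 and 1.19 without GFP 1. txnrd1, a thioredoxin reductase gene whose listed human ortholog is TXNRD3, had 263, 318 and 422 CPM in MyrRSK and 94.3, 150 and 351 CPM in GFP melanomas (0.78 ± 0.29, edgeR adjusted p = 0.224). GFP 4, at 351 CPM, lay inside the MyrRSK range, GFP 3 just below its low end, and the other GFP libraries had at most 153 CPM.

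The mitochondrial thioredoxin and its reductase had fold changes of opposite sign. Mitochondrial thioredoxin, txn2, had 32.7, 37.3 and 42.2 CPM in MyrRSK and 11.7, 23.3 and 37.9 CPM in GFP melanomas (log2 fold change 0.66 ± 0.26, edgeR adjusted p = 0.238). Its values were tightly grouped in MyrRSK melanomas and spread in GFP melanomas. Its reductase is listed as 2 genes that start at the same base of chromosome 5, txnrd2 (-0.46 ± 0.25, edgeR adjusted p = 0.406) and TXNRD2 (1 of 2) (-0.38 ± 0.21, edgeR adjusted p = 0.414). The span of txnrd2 lies wholly inside that of TXNRD2 (1 of 2), an overlap of 9861 bases, so they are not 2 independent readings. Both were at or under 6.68 CPM in all libraries, and all 6 MyrRSK libraries were under the GFP median. The thioredoxin inhibitor gene txnipa had 614, 863 and 1479 CPM in MyrRSK and 504, 949 and 1185 CPM in GFP melanomas (-0.01 ± 0.27), and txnl1, a thioredoxin-like proteasome partner gene, differed by -0.03 ± 0.18. The 9 other genes with symbols in txn, such as txndc5 of the endoplasmic reticulum and txnl4a of the spliceosome, were taken in by symbol alone and counted apart from the thioredoxin system. Of these 9, 7 had log2 fold changes between 0.31 and 0.41, and TXNDC12 (-0.26) and txndc5 (-0.59) were below 0, and txndc5 was at -0.02 without GFP 3, with 0 of the 9 at an unadjusted p under 0.05 with edgeR and 0 called by DESeq2. With the muscle covariate TXNDC15 (-0.10) and TXNDC16 (-0.16) turned below 0. TXNDC11, a partner of the oxidases that feed thyroid hormone synthesis in mammals, had the smallest p of these (0.38 ± 0.18, edgeR adjusted p = 0.328). txndc9, a chaperonin partner gene, differed by 0.37 ± 0.19.

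Superoxide dismutases and catalase had positive fold changes in 5 of 5 genes, none of which passed at an unadjusted p of 0.05. Of all genes 44.9% were above 0. sod1, the cytosolic copper and zinc enzyme, had 93.2, 106 and 145 CPM in MyrRSK and 50.1, 73.6 and 146 CPM in GFP melanomas (log2 fold change 0.40 ± 0.27, edgeR adjusted p = 0.498). Each MyrRSK library was above the GFP median, but GFP 3 was as high as the highest MyrRSK library, and the fold change of sod1 was 0.14 without both GFP 1 and GFP 2. sod2, the manganese enzyme of mitochondria, had 27.2, 36.7 and 42.4 CPM in MyrRSK and 24.3, 33.9 and 38.5 CPM in GFP melanomas (0.08 ± 0.17, edgeR adjusted p = 0.849). Catalase, the peroxide-splitting enzyme of peroxisomes, had 48.0, 55.4 and 80.5 CPM in MyrRSK and 30.6, 43.7 and 69.5 CPM in GFP melanomas (0.38 ± 0.22, edgeR adjusted p = 0.433). For sod2 and catalase the groups overlapped. sod3, the secreted enzyme, had 4.97, 11.8 and 12.8 CPM in MyrRSK and 3.07, 7.30 and 9.72 CPM in GFP melanomas (0.65 ± 0.31, edgeR adjusted p = 0.331), and 4 of 6 MyrRSK libraries were above every GFP library. It lies inside the annotated span of aip on chromosome 1, which differed by 0.40 ± 0.19. SOD3 (1 of 3), at most 0.715 CPM, lies inside that of ing2, which differed by 0.40 ± 0.18. As for gstal, reads from the shared stretches cannot be told apart.

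Peroxiredoxins, thiol enzymes that reduce peroxide at high affinity, were above 0 in 6 of 6 genes, with 1 of them at an unadjusted p under 0.05. Of all genes 44.9% were above 0 and 7.18% were higher at that level. prdx2, a cytosolic member, had 252, 379 and 659 CPM in MyrRSK and 205, 230 and 410 CPM in GFP melanomas (log2 fold change 0.57 ± 0.26, edgeR adjusted p = 0.316). MyrRSK 6 was the highest library, and the fold change of prdx2 was 0.28 with the muscle covariate. prdx3, the mitochondrial member that txn2 serves, had 55.6, 76.4 and 102 CPM in MyrRSK and 42.1, 59.3 and 69.3 CPM in GFP melanomas (0.42 ± 0.20, edgeR adjusted p = 0.336). In 4 of 6 MyrRSK libraries prdx3 was above every GFP library. prdx5 differed by 0.47 ± 0.35 (0.07 with the muscle covariate, 0.25 without MyrRSK 2) and prdx4 of the secretory pathway by 0.28 ± 0.20 (0.46 with that covariate). prdx1 and prdx6 differed by 0.09 ± 0.29 each. The last 2 lay near 0 and changed sign. The fold change of prdx1 was -0.19 without both GFP 1 and GFP 2. Without both MyrRSK 2 and MyrRSK 4, prdx1 was at -0.02 and prdx6 at -0.07. Sulfiredoxin, srxn1, which repairs over-oxidised peroxiredoxins, differed by -0.35 ± 0.23 (edgeR adjusted p = 0.492).

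Among 7 glutathione peroxidases 6 fold changes were above 0, and the 2 gpx1 copies had an unadjusted p under 0.05. Of all genes 44.9% were above 0 and 7.18% were higher at that level. gpx1a had 37.0, 49.1 and 61.4 CPM in MyrRSK and 22.4, 34.9 and 40.8 CPM in GFP melanomas (log2 fold change 0.60 ± 0.20, edgeR adjusted p = 0.164). It was above every GFP library in 5 of 6 MyrRSK libraries, all but MyrRSK 5. Its annotated span overlaps those of BRK1, an actin regulator gene (0.49 ± 0.18), and TEX264 (1 of 2) (0.20 ± 0.25). gpx1b was low, with 1.32, 1.60 and 2.43 CPM in MyrRSK and 0.295, 0.849 and 1.46 CPM in GFP melanomas (1.04 ± 0.36, edgeR adjusted p = 0.190). gpx3, the secreted plasma enzyme, had 512, 762 and 2356 CPM in MyrRSK and 199, 674 and 2481 CPM in GFP melanomas (0.22 ± 0.61, edgeR adjusted p = 0.890). Both groups spread widely, with MyrRSK 6, MyrRSK 4, GFP 3 and GFP 4 high. The fold change of gpx3 was below 0 without both GFP 1 and GFP 2 (-0.23). The gpx4 copies, which reduce lipid peroxides in membranes, differed by 0.34 ± 0.19 for gpx4b and 0.03 ± 0.28 for gpx4a, and gpx7 and GPX8 of the endoplasmic reticulum by 0.72 ± 0.34 and -0.02 ± 0.32. With the muscle covariate gpx4b was at 0.02, gpx4a at -0.16 and gpx7 at 1.12.

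**Figure D3:**
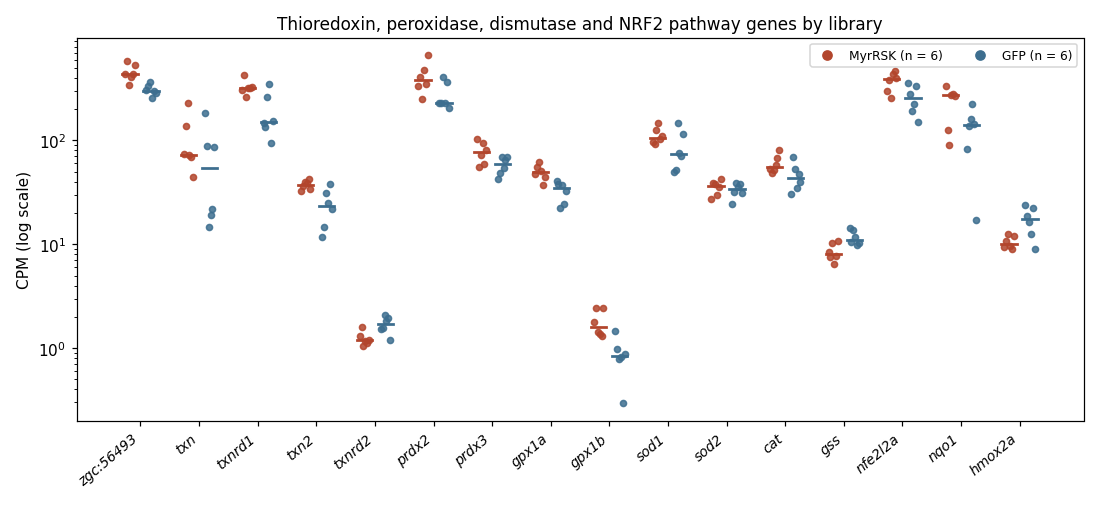
CPM on a log scale (vertical axis) of 16 thioredoxin, peroxiredoxin, peroxidase, dismutase, glutathione synthesis and NRF2 pathway genes (horizontal axis) in 6 MyrRSK and 6 GFP libraries, 1 point a library, with the group medians as bars. The medians of zgc:56493, txnrd1 and txn2 are higher in MyrRSK melanomas and those of gss and hmox2a lower, and for each of the 16 genes the groups overlap.

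The 4 genes that make and recycle glutathione had 2 fold changes above 0 and 2 below, with a median of -0.09. gclc, the catalytic subunit of glutamate-cysteine ligase and the rate-limiting step, had 35.6, 36.1 and 59.4 CPM in MyrRSK and 19.8, 41.5 and 55.9 CPM in GFP melanomas (log2 fold change 0.01 ± 0.24, edgeR adjusted p = 0.992). Apart from MyrRSK 1 the MyrRSK libraries lay between 35.6 and 39.1 CPM. gclm, the modifier subunit, had 37.3, 55.6 and 66.6 CPM in MyrRSK and 42.7, 57.0 and 80.2 CPM in GFP melanomas (-0.18 ± 0.20). Glutathione synthetase, gss, had 6.40, 8.08 and 10.8 CPM in MyrRSK and 9.90, 11.1 and 14.5 CPM in GFP melanomas (-0.45 ± 0.20, unadjusted p = 0.0399, edgeR adjusted p = 0.296). In 4 of 6 MyrRSK libraries gss was below every GFP library, and its fold change was -0.14 with the muscle covariate. Glutathione reductase, gsr, had 42.6, 49.1 and 69.0 CPM in MyrRSK and 27.1, 44.2 and 63.0 CPM in GFP melanomas (0.21 ± 0.22, edgeR adjusted p = 0.681). Of these 4 genes 0 were called by edgeR, DESeq2 or limma-voom.

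Among the 7 genes of the NRF2 and KEAP1 axis and its stress enzymes, nfe2l2a (higher) and hmox2a (lower) had an unadjusted p under 0.05. Of all genes 7.18% were higher and 8.33% lower at that level. With edgeR, DESeq2 or limma-voom 0 of the 7 were called. nfe2l2a, the NRF2 gene, had 256, 390 and 466 CPM in MyrRSK and 151, 253 and 354 CPM in GFP melanomas (log2 fold change 0.54 ± 0.24, edgeR adjusted p = 0.303). It was above every GFP library in 4 of 6 MyrRSK libraries, and its fold change was 0.15 with the muscle covariate (unadjusted p = 0.663). The KEAP1 genes differed by 0.23 ± 0.20 for keap1b, with 24.7, 29.1 and 33.3 CPM in MyrRSK and 19.4, 21.2 and 39.3 CPM in GFP melanomas, and by -0.12 ± 0.22 for keap1a, with 26.0, 33.1 and 62.9 CPM in MyrRSK and 34.3, 38.6 and 53.4 CPM in GFP melanomas. nqo1, a quinone reductase gene widely used as an NRF2 readout, had 91.1, 271 and 333 CPM in MyrRSK and 17.0, 140 and 224 CPM in GFP melanomas (0.84 ± 0.48, edgeR adjusted p = 0.430). MyrRSK 2 and MyrRSK 3 were below the GFP median for this gene, GFP 6 was the lowest of all, and with the muscle covariate the fold change of nqo1 was 0.30. Among the haem-degrading enzyme genes, hmox2a had 8.97, 10.1 and 12.5 CPM in MyrRSK and 9.01, 17.5 and 23.7 CPM in GFP melanomas (-0.70 ± 0.24, edgeR adjusted p = 0.182), and the MyrRSK values were all below the GFP median. hmox2b differed by -0.48 ± 0.23 (-0.18 with the muscle covariate). The inducible hmox1, a classical NRF2 and haem target, had 15.3, 30.2 and 34.9 CPM in MyrRSK and 7.98, 19.0 and 80.6 CPM in GFP melanomas (-0.18 ± 0.53). GFP 1 and GFP 2 were the highest libraries, and the fold change of hmox1 turned to 0.39 without GFP 1 and to 0.94 without both.

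The shift of the members varied between melanomas. Relative to the GFP mean of each gene, the median of the 61 members in a library was 0.17 to 0.40 on the log2 scale in MyrRSK and -0.10 to 0.24 in GFP melanomas, so that GFP 3 lay within the MyrRSK range. Ordered by summed muscle markers without atp2a1, highest first, the MyrRSK libraries were MyrRSK 4, 2, 1, 6, 5 and 3. In that order their medians were 0.40, 0.27, 0.17, 0.21, 0.22 and 0.22. A link between the 2 was not tested. Of the 61 members, 37 to 43 were above their GFP mean in a MyrRSK library and 23 to 38 in a GFP library. The GFP libraries set that mean themselves, so their values lie around 0 by construction. All genes were not set beside these library values, which therefore do not show a shift particular to the members. GFP 1 held the lowest of 12 values for 13 members and GFP 3 for 10, among them prdx1 and sod1 in GFP 1 and txn in GFP 3. GFP 3 also held the highest for 8, among them gpx3 and sod1.

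**Figure D4:**
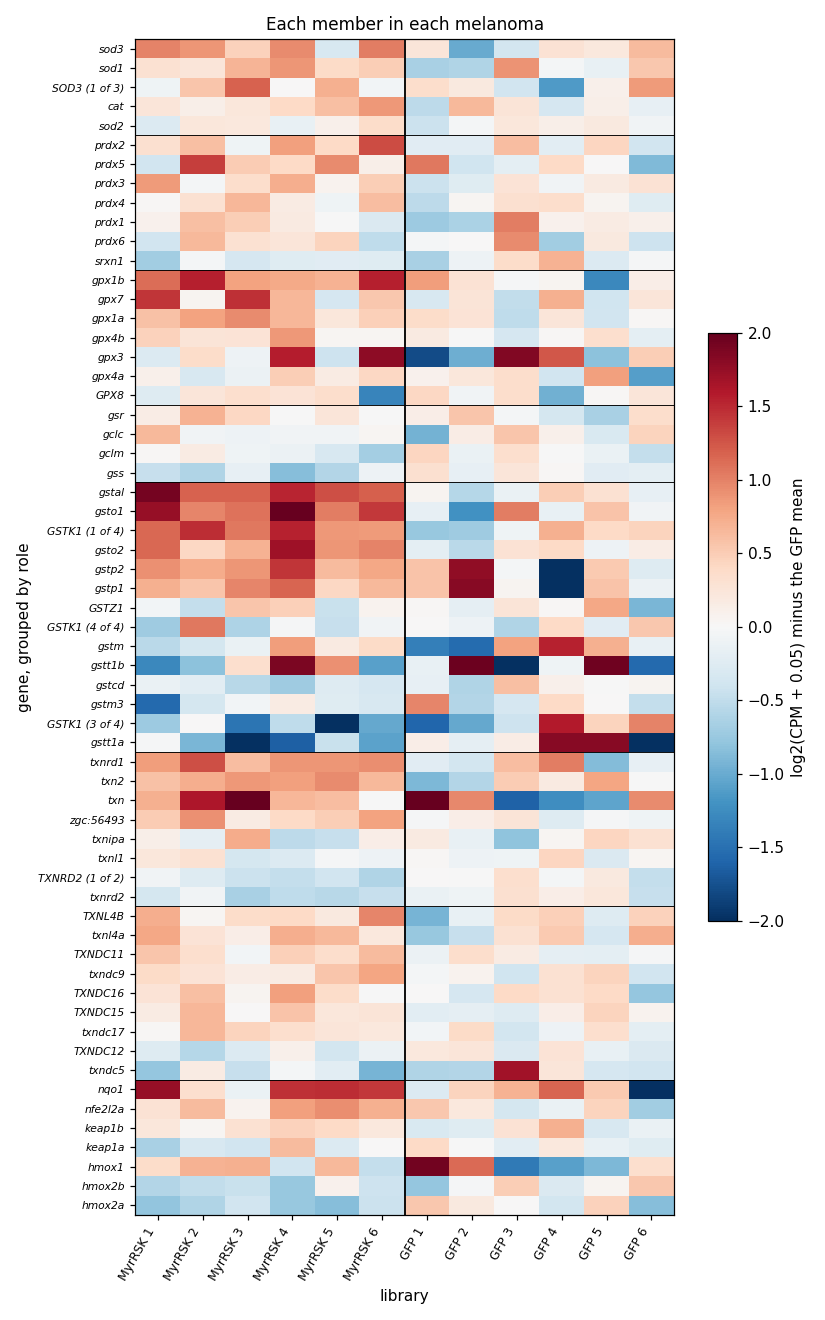
Each of the 61 tested members (vertical axis, grouped by role) in 6 MyrRSK and 6 GFP libraries (horizontal axis); colour is log2(CPM + 0.05) minus the GFP mean of that gene, red above and blue below, with the scale ended at -2 and 2. The rows of gstal, gsto2 and GSTK1 (1 of 4) are redder in all MyrRSK libraries, while txn, gpx3, gstt1b, gstt1a and hmox1 vary within the groups.

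Neighbouring redox pathways were read from 6 lists of other genes, 118 in all. With edgeR 2 of the 118 were called higher (0.29% of all genes were) and 0 lower (0.115%). DESeq2 called 5 higher (2.95% of all genes) and 6 lower (2.83%), and limma-voom 2 higher (0.298%) and 0 lower (0.0707%). idh1, the cytosolic isocitrate dehydrogenase that yields NADPH, had 115, 203 and 264 CPM in MyrRSK and 58.2, 80.4 and 103 CPM in GFP melanomas, with no overlap (log2 fold change 1.27 ± 0.23, edgeR adjusted p = 0.0344). It was the 1 gene of the 20 NADPH supply genes to pass. mthfd1b, a gene of one-carbon metabolism, differed by -0.95 ± 0.47, and the median of the list was 0.03. sesn3, a sestrin gene whose mammalian products aid peroxiredoxin recycling, had 24.1, 38.3 and 53.2 CPM in MyrRSK and 11.9, 14.6 and 22.0 CPM in GFP melanomas, again with no overlap (1.305 ± 0.234, edgeR adjusted p = 0.0349). In the glutaredoxin and protein repair list of 13 it was the 1 call, and park7, a redox-sensitive chaperone gene, differed by 0.76 ± 0.24 (edgeR adjusted p = 0.156). The call of idh1 ended without GFP 1, 2 or 5 or MyrRSK 2, 4, 5 or 6, that of sesn3 without any single library except GFP 6 and MyrRSK 1, and both with the muscle markers as a covariate.

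Genes that supply cysteine and methyl-cycle precursors had a median log2 fold change of -0.25, with 0 called by edgeR or limma-voom. At an unadjusted p under 0.05 the 23 genes held 2 higher and 4 lower, where 7.18% of all genes were higher and 8.33% lower. DESeq2 called 1 of these 23 genes higher (2.95% of all genes were) and 3 lower (2.83%). The light chain of the cystine importer, SLC7A11 (1 of 2), had 1.70, 3.85 and 10.9 CPM in MyrRSK and 3.55, 16.6 and 35.5 CPM in GFP melanomas (log2 fold change -1.71 ± 0.54, edgeR adjusted p = 0.152). The second copy, SLC7A11 (2 of 2), named after its values were seen, had at most 3.21 CPM in MyrRSK and 3.14 CPM in GFP melanomas and differed by 0.10 ± 0.57. The heavy-chain partner has 2 copies with opposite signs. slc3a2b had 324, 448 and 521 CPM in MyrRSK and 162, 212 and 334 CPM in GFP melanomas (0.97 ± 0.21, edgeR adjusted p = 0.0608), and slc3a2a, chosen after its values were seen, had 39.0, 80.6 and 89.0 CPM in MyrRSK and 55.9, 166 and 342 CPM in GFP melanomas (-1.37 ± 0.40, edgeR adjusted p = 0.124). All 6 MyrRSK libraries were above the GFP median for slc3a2b and below it for slc3a2a. mat1a, a methionine adenosyltransferase gene of liver in mammals, differed by -2.06 ± 0.42 at no more than 1.52 CPM in MyrRSK and 9.47 CPM in GFP melanomas (edgeR adjusted p = 0.0540).

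Of 18 other selenoprotein and selenium pathway genes, an unadjusted p under 0.05 was found for 6 with a positive and 1 with a negative fold change, with 0 called by edgeR or limma-voom, 1 higher and 1 lower by DESeq2, and a median log2 fold change of 0.25. The thyroid hormone deiodinase genes dio3b (-2.005 ± 0.523) and dio2 (2.45 ± 0.69) had the smallest p, both at low levels. Of 33 other NRF2 targets and partners 3 (9.09%) were higher and 2 (6.06%) lower at that level, near the shares of all genes. With edgeR or limma-voom 0 were called, with DESeq2 1 higher and 1 lower, and the median was 0.08. ugt1ab, a glucuronosyltransferase gene, had 2.85, 3.66 and 11.1 CPM in MyrRSK and 0.914, 1.37 and 2.78 CPM in GFP melanomas (1.70 ± 0.41, edgeR adjusted p = 0.0798), with no overlap. Of 19 genes of oxidant-producing oxidases 0 were higher and 3 (15.8%) lower at that level, where 8.33% of all genes were lower. With edgeR or limma-voom 0 were called, with DESeq2 2 lower, and the median was -0.07. The aldehyde oxidase genes aox3 and aox1 had the lowest fold changes there (-3.82 ± 0.99 and -3.56 ± 0.98), with GFP values from 0.701 to 62.2 CPM and from 3.69 to 297 CPM. Their MyrRSK values ran from 0.738 to 1.65 CPM and from 2.35 to 16.8 CPM. Over 23 alternatives the log2 fold change ran from -4.07 to -1.13 for aox3 and from -3.99 to -1.24 for aox1.

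**Figure D5:**
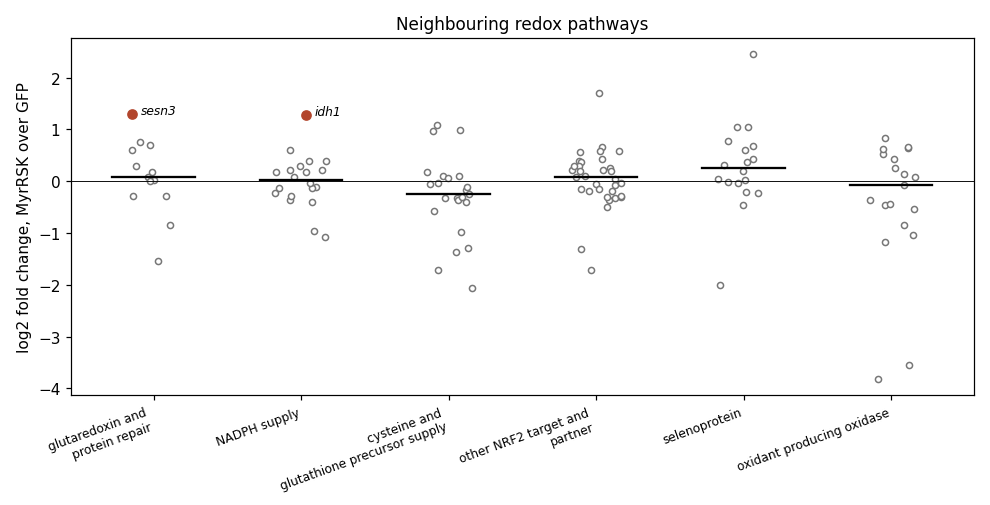
The log2 fold change, MyrRSK over GFP (vertical axis), of each tested gene in 6 neighbouring redox gene lists (horizontal axis), 1 point a gene, with the list median as a bar and filled points for an adjusted p under 0.05. The 2 filled points are sesn3 at 1.305 and idh1 at 1.27; a gene in 2 lists is drawn in each.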

How the data were processed

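One table for the series was used. The authors deposited raw read counts, 1 column a library, and these were the values tested. Its other columns are the authors' own: normalized counts, a signal made by dividing each library by 1 factor, and log2 fold changes, a score (fold change over its error) and p-values. The submitters' processing notes list the build Zv9 and the tools DESeq2, HTSeq 0.6.0 and STAR 2.6.1d. No listed gene has a mean normalized count under 5.08. Symbols come from the table, and list symbols were also looked up among current gene names, known for 68.5% of IDs.

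The test was edgeR 4.0.16 (R 4.3.3) on counts filtered with filterByExpr and scaled with TMM, using robust quasi-likelihood fitting of group alone, with Benjamini-Hochberg adjustment over 26866 genes. A standard error is the fold change divided by the root of its F statistic, and CPM uses TMM-scaled library sizes. No set test was run. Alternatives were DESeq2 1.42.0, limma 3.58.1 (voom), other scalings and filters, no robust fitting, the replicate number as a block, a muscle marker covariate and each library left out, with the genes of the full filter kept. The fit was tested on simulated counts.

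Members, lists and tests were chosen with earlier results of these data known. Values per library are given for called members, always for a set of core enzymes, and in each role for the 2 smallest p and the highest mean; of each list, for calls and the 2 smallest p. gsto1, the GSTK1 copies, gstt1a, txn2, gstp2 and TMEM14A were added after their values were seen. The annotated spans of 8 members overlap another gene of the table. Figures were drawn with matplotlib 3.10.9.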

Additional observations from a re-analysis of the deposited data

Results flagged for a closer look

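Across 122 sets of 6 libraries (61 members in 2 groups), 7 had 1 library far from the other 5, where chance gives about 1 in 20. gclc stood at 59.4 CPM in MyrRSK 1, against 35.6 to 39.1 CPM in the other MyrRSK libraries. gstm3 was low in the same library, at 4.59 CPM against 10.6 to 15.2 CPM. gstp2 was high in MyrRSK 4, at 53.1 CPM against 30.6 to 37.1 CPM. GPX8 was low in MyrRSK 6 (1.88 CPM, the others 3.99 to 6.12 CPM) and in GFP 4 (2.44 CPM, the others 4.54 to 6.38 CPM). gstt1a was low in GFP 6, at 5.32 CPM against 63.6 to 257 CPM, and txndc5 was high in GFP 3, at 595 CPM against 122 to 220 CPM.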

How the results depend on the processing

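The count of members called higher was 1 with other scalings, other filters, limma-voom and no robust fitting, 6 with DESeq2, and 0 with the replicate block, with the muscle covariate, without both GFP 1 and GFP 2, and without both MyrRSK 2 and MyrRSK 4. The last 2 were chosen after seeing the data. It was 0 to 1 with each library left out, and members called lower were 0 throughout. Members higher at an unadjusted p under 0.05 numbered 3 with the muscle covariate and 8 to 14 in the other alternatives. Those lower numbered 2 with limma-voom, 1 with the replicate block, 2 with the muscle covariate, 2 without both MyrRSK 2 and MyrRSK 4, 6 with DESeq2 and 6 without both GFP 1 and GFP 2, and 1 to 5 with each library left out. The median log2 fold change of the members stayed between 0.15 and 0.32. Pathway list genes called higher numbered 5 with DESeq2, 0 with the replicate block, with the muscle covariate and without either pair, and 0 to 2 with each library left out. Those called lower numbered 6 with DESeq2, 1 with a mean count of at least 100, and 0 to 1 with each library left out.

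Deviations of same-numbered libraries from their group means were weakly correlated (-0.15 to 0.10). Whether these libraries were paired is not labelled. The correlations cannot settle it, because libraries with different numbers were not set beside them. Values near 0 changed sign. The log2 fold change of gclc was -0.021 with upper quartile scaling, -0.0029 with a mean count of at least 100, -0.15 without both GFP 1 and GFP 2, and -0.14 to 0.13 with each library left out. The log2 fold change of gpx3 was -0.15 with the muscle covariate, -0.23 without both GFP 1 and GFP 2, and -0.11 to 0.73 with each library left out. Without both GFP 1 and GFP 2 the log2 fold change of sod2 was -0.025. With the muscle covariate the log2 fold change of txnipa was 0.39, and it was 0.15 without both MyrRSK 2 and MyrRSK 4 and -0.21 to 0.078 with each library left out. That of hmox1 (log2 fold change of hmox1) was 0.26 with limma-voom, 0.25 with the replicate block, 0.064 with the muscle covariate, 0.94 without both GFP 1 and GFP 2, and -0.38 to 0.39 with each library left out. The cause was not tested.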
